A study of Macaca fascicularis with 32 samples.

Results

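The genes described here are the netrins, SLITs, semaphorins and ephrins and the receptors they bind, taken as every gene of the deposited annotation whose symbol begins with SEMA, PLXN, EPHA, EPHB, EFNA, EFNB, UNC5, SLIT or ROBO before a further letter or digit, together with NTN1, NTN4, NTNG1, NTNG2 and DCC, and without the SLITRK genes. The rule used no measured value and returned 66 of 22316 genes. They are 4 netrins, DCC and 6 genes spelled UNC5, 3 SLITs and 4 ROBOs, 20 semaphorins and 8 plexins, and 5 EFNA and 3 EFNB ephrins with 8 EPHA and 4 EPHB receptors. UNC50 and UNC5CL came in by their spelling alone and are not netrin receptors. PLXND1, EPHB2 and EPHA10 were not analysed here.

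Axon guidance ligands and receptors steer growing axons and migrating cells in the embryo and stay on in the adult brain, where they act at synapses and on glia. Netrin-1 attracts or repels axons through DCC and the UNC5 receptors, netrin-G ligands are bound to the membrane and pair with LRRC4C and LRRC4, and secreted SLITs repel axons that carry ROBO receptors. Secreted class 3 semaphorins signal through neuropilins and plexins, while most of the other vertebrate classes span the membrane and can bind plexins directly. Ephrins and Eph receptors signal between touching cells in both directions. Netrin-1 and DCC are best known from crossing axons of the spinal cord and also take part in the wiring of dopaminergic neurons, whose axons run from the substantia nigra to the striatum.

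Nuclei came from the substantia nigra (SN), the putamen (PUT) and the caudate (CN, given as caudal nucleus) of macaques, the species being Macaca fascicularis by its organism label and Macaca mulatta in the extraction text. PD samples are labelled PD, and the series title names a Parkinson's disease monkey model made with an adeno-associated virus for α-synuclein and with poly(ADP-ribose); CT samples are labelled CT only, so age, sex, virus dose and what the CT animals received are not given in the sources used here. The labels list 4 PD and 4 CT samples for SN, 4 PD and 8 CT for PUT, and 4 PD and 8 CT for CN, but each region and group has 1 matrix with no map of barcodes to samples. Each matrix was therefore 1 library, no comparison below has a replicate check, and PD against CT cannot be told apart from differences between the animals or between the 2 libraries. The 6 libraries held 18692617 to 36723856 unique molecular identifiers (UMIs, counted RNA molecules), and 52693 of 56659 barcodes were retained. Pairs of libraries shared 14 to 38 barcodes, or 0.156% to 0.411%.

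Nuclei were clustered with the guidance genes left out of the genes used for clustering and were named from marker genes, so each name below carries "-like". Dopaminergic-like nuclei numbered 277 in PD and 354 in CT of SN. The striatum held spiny projection neurons (SPNs), the main output cells of putamen and caudate, as direct SPN-like, indirect SPN-like and eccentric SPN-like nuclei; all regions held oligodendrocyte-like nuclei, oligodendrocyte precursor-like nuclei, microglia-like or macrophage-like nuclei (microglia-like from here on), astrocyte-like nuclei and other neuron-like nuclei. Levels are in CPM, a gene's counts after every class of a library was scaled to the same total. The dopaminergic markers summed to 2471 to 2550 CPM in dopaminergic-like nuclei and to at most 233 CPM in any other SN class with at least 100 nuclei. The microglial markers summed to 4695 to 6305 CPM in microglia-like nuclei, against at most 120.3 CPM elsewhere. The direct SPN list separated least, with 255 to 367 CPM in direct SPN-like nuclei and up to 289 CPM in eccentric SPN-like nuclei. SN astrocyte-like nuclei were too few in PD for a comparison, with 80 in PD and 197 in CT.

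Levels are set side by side only for the same gene, because a long gene gathers more nuclear UMIs than a short one. Ratios are PD over CT, with a 95% interval from the 2 counts in parentheses, and intervals cover counting error only. A gene was tested in a class when it had at least 50 UMIs over both libraries, and past 2-fold is called higher or lower without any p-value. Of the 66 genes, 59 were tested in at least 1 of 21 comparisons and 7 in none (EPHA1, EPHA2, EPHB4, SEMA3G, UNC5A, UNC5CL and ROBO4).

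The netrin ligand NTN1 and its receptor DCC were highest in different classes except in the CT library of SN, where dopaminergic-like nuclei led both. In SN, NTN1 stood at 808 CPM in PD and 996 CPM in CT in dopaminergic-like nuclei, and the class next to it was the oligodendrocyte precursor-like one with 542 CPM in PD and 677 CPM in CT. In the striatum the precursors alone kept such a level, 522 CPM in PD and 472 CPM in CT in PUT and 446 CPM in PD and 451 CPM in CT in CN, while each other class there stayed at or below 68.3 CPM. DCC, the receptor through which netrin-1 attracts axons, stood at 4779 CPM in PD and 4721 CPM in CT in dopaminergic-like nuclei. Oligodendrocyte-like nuclei, the myelin-forming class, had 5207 CPM in PD and 3649.9 CPM in CT in SN, 5235 CPM in PD and 4074 CPM in CT in PUT and 6108 CPM in PD and 5078 CPM in CT in CN. Oligodendrocyte-like nuclei were the highest class for DCC in 5 of the 6 libraries, the CT library of SN being the exception.

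The UNC5 receptors, which with netrin-1 mediate repulsion, divided by class. UNC5C was at 1072 to 1469.6 CPM in oligodendrocyte-like nuclei over the 6 libraries, and dopaminergic-like nuclei had 896 CPM in PD and 1096 CPM in CT. UNC5B stood at 48.5 to 96.5 CPM in oligodendrocyte-like nuclei, and the next class of each library reached at most 28.6 CPM. UNC5D was instead highest in other neuron-like nuclei of SN (1678 CPM in PD and 1193 CPM in CT) and stood at 717 to 1088 CPM in indirect SPN-like nuclei. UNC5A had 102 UMIs over all nuclei and was tested nowhere. NTN4, a netrin of basement membranes, was at 156 to 183 CPM in striatal oligodendrocyte-like nuclei, against 37.4 to 48.7 CPM in those of SN. NTNG1 marked the precursors, with 693 to 1017 CPM over the 6 libraries; the next class was dopaminergic-like in the PD library of SN at 510.2 CPM and stayed at or below 87.6 CPM in the striatum.

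ROBO1 and ROBO2, receptors for the SLITs, were highest in a neuronal class in all 6 libraries. ROBO2 stood at 12637 CPM in PD and 14527 CPM in CT in dopaminergic-like nuclei and at 3969 CPM in PD and 3852 CPM in CT in other neuron-like nuclei of SN. Direct SPN-like nuclei had 4863 to 6832 CPM and indirect SPN-like nuclei 4541 to 5557 CPM, while eccentric SPN-like nuclei, a smaller kind of spiny neuron, had 290.2 to 323 CPM. ROBO1 ran otherwise: eccentric SPN-like nuclei had 1703 to 2957 CPM, direct SPN-like nuclei 992 to 1571 CPM, and other neuron-like nuclei of all regions 2211 to 3943 CPM. Among the ligands, SLIT3 was at 1008 to 1285 CPM in direct and 1109 to 1318 CPM in indirect SPN-like nuclei, SLIT1 was highest in other neuron-like nuclei of every library (146 to 270.0 CPM), and SLIT2 was at 212 to 438 CPM in direct and 171 to 518 CPM in indirect SPN-like nuclei but at 8.23 to 27.7 CPM in eccentric SPN-like nuclei. ROBO3 and ROBO4 had 253 and 89 UMIs over all nuclei.

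Several semaphorins were highest in glial classes. SEMA5A, a membrane-spanning semaphorin, stood at 1060.4 to 1357 CPM in oligodendrocyte precursor-like nuclei and at 389 to 473 CPM in oligodendrocyte-like nuclei. SEMA6A was at 382 to 492 CPM, SEMA4C at 15.8 to 32.1 CPM and SEMA4D at 105 to 200.1 CPM in oligodendrocyte-like nuclei. PLXNB3, a plexin that binds SEMA5A, and PLXNB1, which binds SEMA4D, were at 83.2 to 145 CPM and 37.5 to 82.3 CPM there, and PLXNB1 reached 64.6 to 127 CPM in astrocyte-like nuclei. SEMA4B was highest in astrocyte-like nuclei wherever these reached 100 nuclei (99.1 to 212 CPM), and SEMA4A was at 76.2 to 163 CPM in microglia-like nuclei, with striatal astrocyte-like nuclei close behind at 68.2 to 90.5 CPM. The secreted SEMA3C stood at 104 to 237 CPM in the precursors, and SEMA3D was at 77.1 CPM in PD and 116 CPM in CT in SN precursors while striatal precursors had no UMI in PD, with Poisson intervals that reach 12.1 CPM in PUT and 8.32 CPM in CN, and at most 5.04 CPM in CT. SEMA3A was at 227 to 502 CPM in direct and 159.9 to 455 CPM in indirect SPN-like nuclei. SEMA5B and SEMA6D marked eccentric SPN-like nuclei, with 273 to 419.8 CPM and 1046 to 1136 CPM, and SEMA6D was also high in dopaminergic-like nuclei at 768 CPM in PD and 834 CPM in CT.

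Among the contact-dependent pairs, the receptor EPHA5 was highest in dopaminergic-like nuclei in SN (621 CPM in PD and 534 CPM in CT) and in eccentric SPN-like nuclei in the striatum (300.3 to 601 CPM). EPHA7 stood at 358 to 535 CPM in direct SPN-like nuclei, against 109 to 176 CPM in eccentric SPN-like nuclei. PLXNA2, a receptor for secreted semaphorins, was at 323 to 463 CPM in eccentric SPN-like nuclei. In CN direct SPN-like nuclei EPHB6, a receptor without kinase activity, was at 80.3 CPM in PD and 86.9 CPM in CT and SEMA3F at 16.3 CPM in PD and 20.8 CPM in CT, each within 1.5-fold of the next class. EPHA4, a receptor for both ephrin classes, was at 317 to 629 CPM in striatal other neuron-like nuclei and at 42 to 57.7 CPM in those of SN. EPHB1 showed the opposite order in other neuron-like nuclei, with 810.5 to 1044 CPM in SN and 90.3 to 129 CPM in the striatum. These nuclei lay mostly in different sub-clusters in SN and the striatum, so the levels are not those of the same kind of neuron. A sub-cluster led by PAX8 and PAX5 held SN nuclei only, and one led by NOS1 and NPY striatal nuclei only. EPHB1 was also at 489 to 925 CPM in striatal astrocyte-like nuclei, against 176 CPM in those of the SN CT library. The ligand EFNA5 was highest in striatal astrocyte-like nuclei (551 to 1007 CPM), and EFNB2 was at 37.9 to 58.3 CPM in direct SPN-like nuclei.

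**Figure D1:**
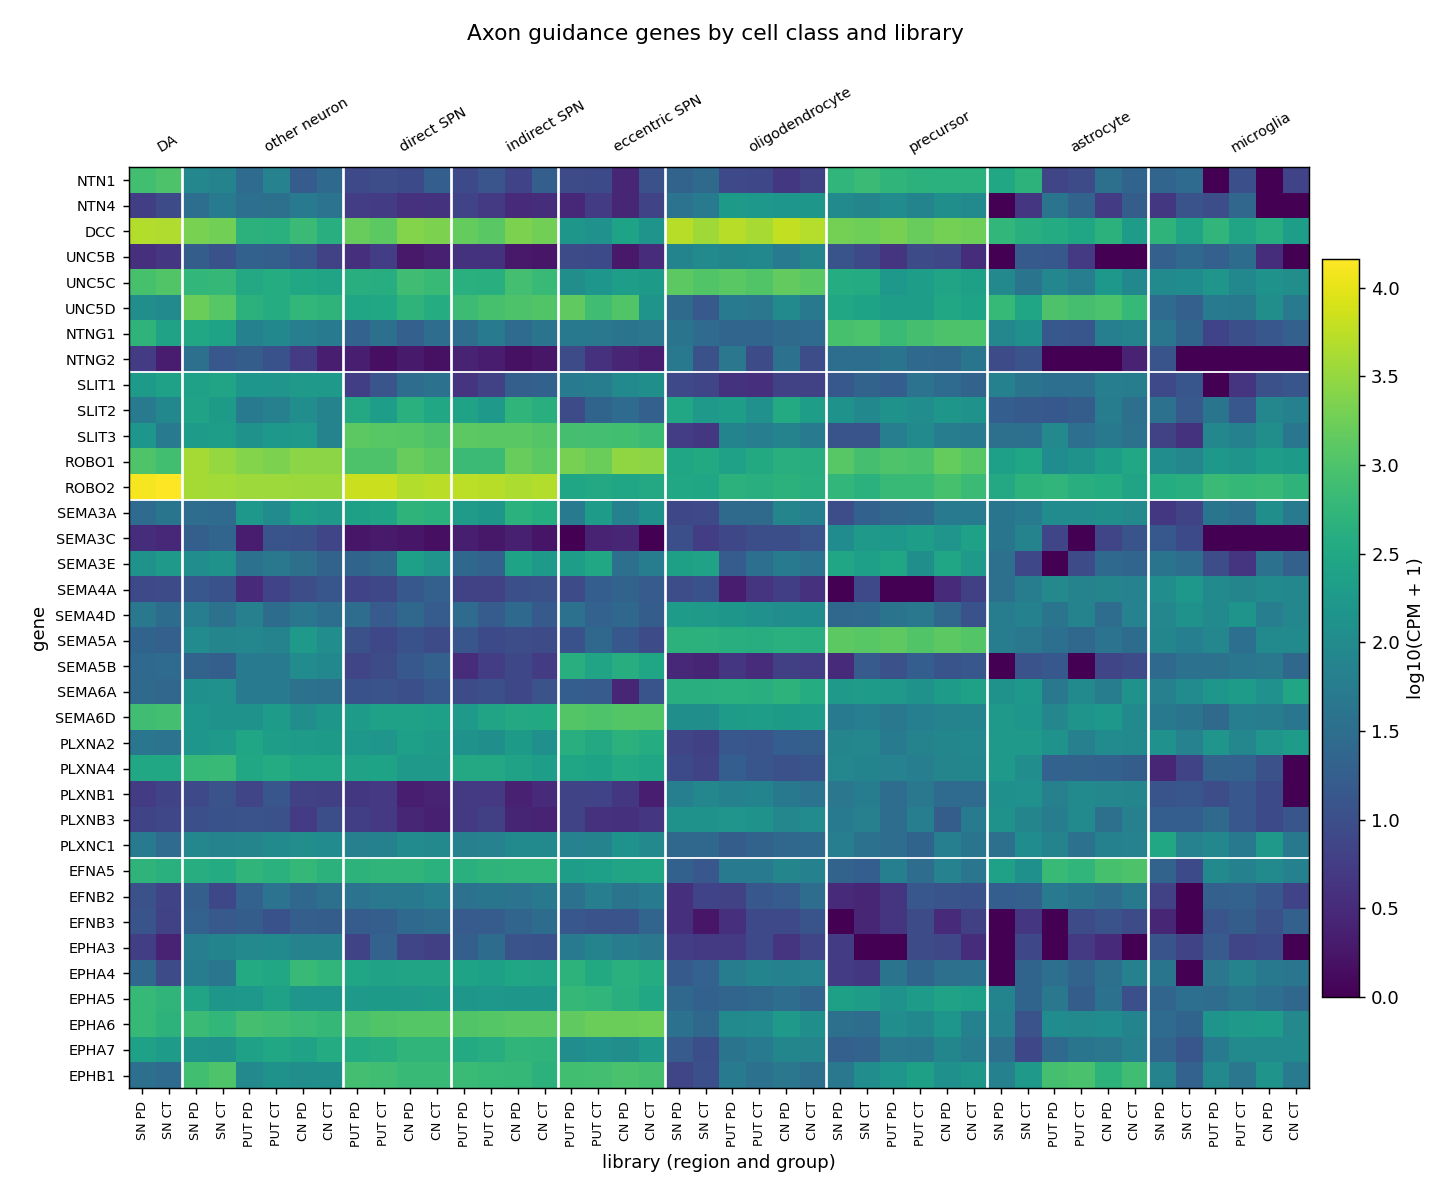
Levels of 36 of the 66 guidance genes (rows, by family) in each class and library (columns, PD left of CT, DA for dopaminergic-like and precursor for oligodendrocyte precursor-like nuclei), as log10 of CPM plus 1. NTN1 and NTNG1 are high in the oligodendrocyte precursor-like columns of all 3 regions and in the dopaminergic-like ones, ROBO2 is highest in the dopaminergic-like columns, and SEMA5B in the eccentric SPN-like ones.

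Set against related classes of the same library, no guidance gene was past 2-fold in every library between the 2 main kinds of spiny neuron. Of 41 tested in direct over indirect SPN-like nuclei, none was past 2-fold in all 4 striatal libraries in either direction, beside 0.111% of all genes higher and 0.213% lower. UNC5D (ratio 0.342 to 0.51) and EPHA3 (0.35 to 0.689) were lower and SEMA5B (1.67 to 3.93) higher in all 4, with intervals that left out 1. Eccentric over direct SPN-like nuclei had 5 of 36 past 2-fold higher in all 4 libraries (EPHA3, PLXNA2, SEMA5B, SEMA6D and SLIT1; background 1.91%) and 7 lower (DCC, EPHA7, EPHB6, ROBO2, SEMA3F, SLIT2 and UNC5C; background 2.8%). For ROBO2 that ratio was 0.0425 to 0.060, for SLIT2 0.0256 to 0.0984 and for SEMA6D 4.31 to 5.99. Dopaminergic-like over other neuron-like nuclei of SN had 5 of 44 past 2-fold higher in both libraries, the receptors DCC, ROBO2 and EPHA5 and the ligands NTN1 and SEMA6D (background 3.44%), and 13 lower (background 6.42%), among them ROBO1, UNC5D, SLIT2, EPHA3, EPHA4 and EPHB1. NTN1 was 9.7 to 13.7 times as high and DCC 2.31 to 2.53 times. Oligodendrocyte precursor-like over oligodendrocyte-like nuclei had 10 of 29 past 2-fold higher in all 6 libraries (EPHA5, EPHB1, NTN1, NTNG1, PLXNA2, PLXNA4, ROBO1, SEMA3C, SEMA5A and UNC5D; background 7.73%) and 4 lower (DCC, SEMA4D, UNC5B and UNC5C; background 8.28%). Precursors carried the ligand NTN1 at 25.5 to 121 times the oligodendrocyte-like level and the receptor UNC5C at 0.133 to 0.342 times.

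**Figure D2:**
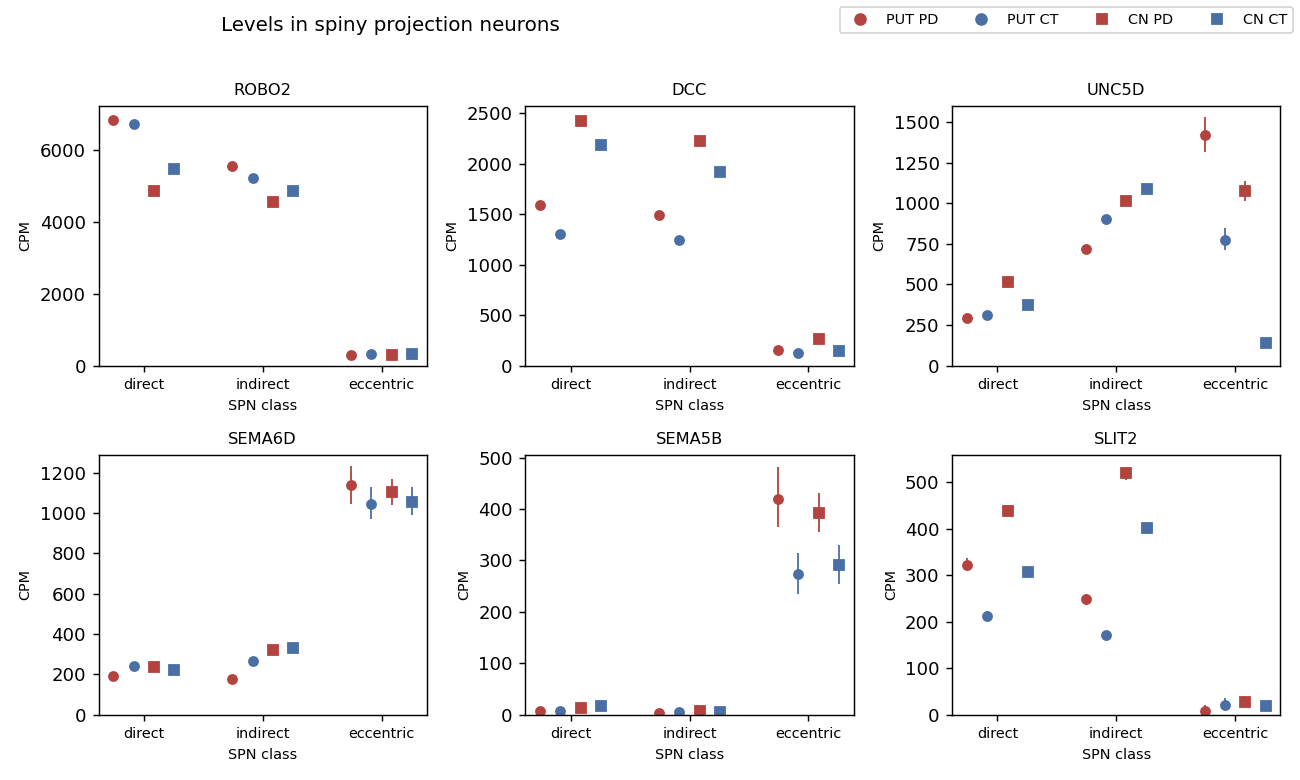
ROBO2, DCC, UNC5D, SEMA6D, SEMA5B and SLIT2 in direct, indirect and eccentric SPN-like nuclei, in CPM with 95% Poisson intervals, PD left of CT, circles for putamen and squares for caudate. ROBO2, DCC and SLIT2 are lower and SEMA6D and SEMA5B higher in the eccentric SPN-like nuclei of every library, and UNC5D there differs between PD and CT of the caudate.

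Between PD and CT, most guidance genes lay within 2-fold. Over the 21 comparisons of a class in a region, 642 pairs of gene and class were tested, of which 27 (4.21%) were past 2-fold higher in PD and 21 (3.27%) lower; over all genes the shares were 1.67% higher and 2.69% lower. In SN, 11 of 172 pairs were higher and 4 lower (background 2.31% and 2.46%), in PUT 5 of 225 and 11 (background 1.52% and 2.46%), and in CN 11 of 245 and 6 (background 1.36% and 3.06%). The 48 pairs past 2-fold fell on 26 genes, and all 48 intervals left out 1. Some of these ratios depend on which sub-clusters a class held in each library. Of the 47 for which a Mantel-Haenszel ratio over sub-clusters with at least 20 nuclei in both libraries could be had, 29 were still past 2-fold, and for the others that value is given below. The 33 compared genes that were past 2-fold nowhere, among them ROBO1, ROBO2, UNC5B, UNC5C, SLIT2, SEMA5A, EPHA5 and EPHA7, had ratios between 0.501 and 1.99 over 323 pairs.

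**Figure D3:**
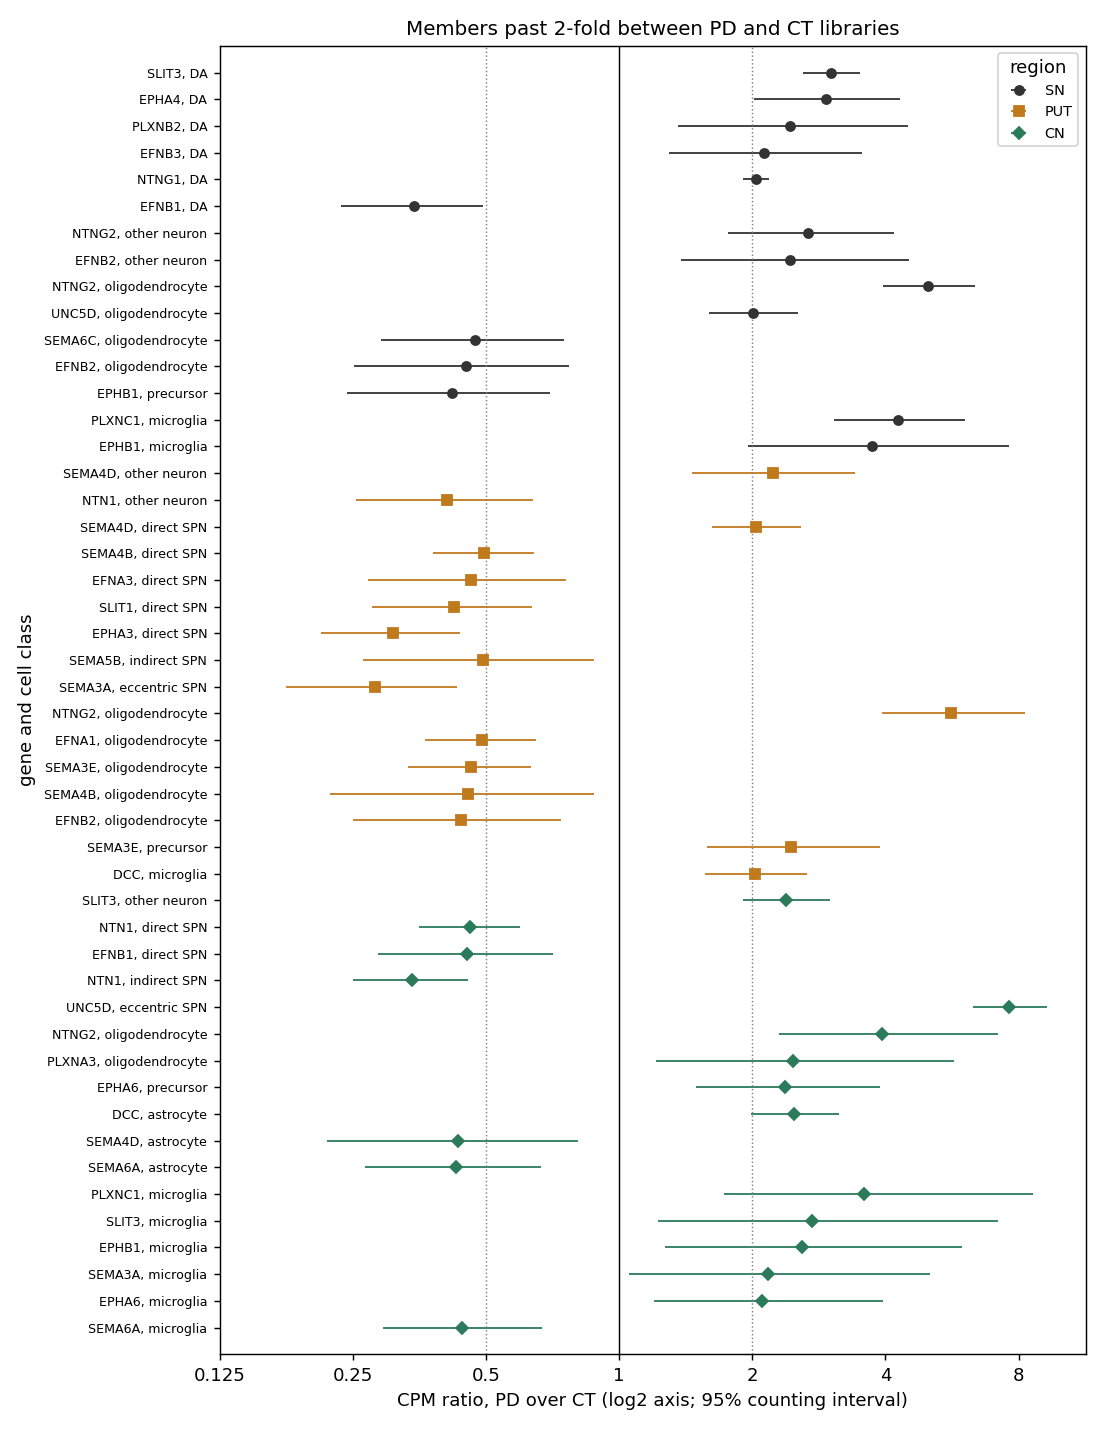
The 48 ratios past 2-fold, PD over CT on a log2 axis, by class (DA for dopaminergic-like) and region, with 95% counting intervals. UNC5D in eccentric SPN-like nuclei of the caudate and NTNG2 in oligodendrocyte-like nuclei of putamen and substantia nigra have the highest ratios. SEMA3A in putamen eccentric SPN-like nuclei and EPHA3 in putamen direct SPN-like nuclei have the lowest.

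Oligodendrocyte-like nuclei shared 1 difference over all regions. NTNG2, a membrane-bound netrin-G ligand whose partner is LRRC4, stood at 47.9 CPM in PD and 9.58 CPM in CT in SN, at 44.2 CPM in PD and 7.84 CPM in CT in PUT and at 34.5 CPM in PD and 8.78 CPM in CT in CN. Every PD library was above every CT library. The ratios were 5.0 (3.95 to 6.39) in SN, 5.63 (3.92 to 8.29) in PUT and 3.92 (2.3 to 7.2) in CN, from 351 UMIs in PD and 88 in CT of SN. Of 37 guidance genes tested in this class in all 3 regions, NTNG2 was the 1 past 2-fold higher in all, beside 0.444% of all genes (40 of 9008), and none was lower in all, beside 0.511%. NTNG2 was at 15.9 to 72.9 CPM in PD and at most 18 CPM in CT over the oligodendrocyte-like sub-clusters with at least 20 nuclei. In the few T or NK lymphocyte-like nuclei, pooled over the libraries, it stood at 63.9 CPM (20.8 to 149) from 5 UMIs. That interval holds the oligodendrocyte-like PD levels of all 3 regions. Of the 112 pooled nuclei, 64 came from the SN PD library. Microglia-like nuclei had no NTNG2 UMI in 5 of the 6 libraries, with Poisson intervals that reach at most 22 CPM, and 10.9 CPM in the PD library of SN. In the precursors it was at 30.8 CPM in PD and 31.3 CPM in CT in SN, 39.4 CPM in PD and 25 CPM in CT in PUT and 24.8 CPM in PD and 40.3 CPM in CT in CN, so the precursors had no common direction. In other neuron-like nuclei of SN it was at 33.4 CPM in PD and 12.5 CPM in CT, a ratio of 2.68 (1.76 to 4.18). LRRC4, its partner, was past 2-fold in 1 comparison, other neuron-like nuclei of CN, at 10.4 CPM in PD and 21.6 CPM in CT (ratio 0.481, interval 0.252 to 0.884), and LRRC4C in none in which it was tested.

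Of the remaining genes of this class, SLIT2, DCC and UNC5C were above 1 in each region without passing 2-fold. SLIT2, a repellent ligand, was at 297 against 168 CPM in SN, 206 against 124 CPM in PUT, 348 against 204 CPM in CN (PD against CT). Its ratios were 1.77 (1.65 to 1.89) in SN, 1.65 (1.48 to 1.85) in PUT and 1.7 (1.51 to 1.92) in CN. DCC had ratios of 1.43 (1.41 to 1.45) in SN, 1.28 (1.26 to 1.31) in PUT and 1.2 (1.17 to 1.23) in CN. UNC5C had ratios of 1.2 in SN, 1.15 in PUT and 1.16 in CN. Oligodendrocyte-like sub-clusters were unequal between PD and CT. One held 460 PD and 22 CT nuclei of SN, 1548 PD and 204 CT of PUT and 1653 PD and 64 CT of CN. Another held 282 PD and 2074 CT nuclei of PUT and 419 PD and 1305 CT of CN. Ratios of SLIT2, DCC and UNC5C within shared sub-clusters are not given here. The other calls differed by region. In SN, 2 of 49 tested genes were higher and 2 lower (background 2.66% and 3.33%): UNC5D was at 26.9 CPM in PD and 13.4 CPM in CT, a ratio of 2.01 that was 1.64 within shared sub-clusters. EFNB2, an ephrin ligand, was at 2.59 CPM in PD and 5.77 CPM in CT (ratio 0.449, and 0.57 within shared sub-clusters), and SEMA6C was at 3.55 CPM in PD and 7.51 CPM in CT (ratio 0.472, and 0.514 within them). In PUT, 1 of 42 was higher and 4 were lower (background 1.39% and 4.13%). EFNB2 was at 5.48 CPM in PD and 12.5 CPM in CT (ratio 0.439, interval 0.25 to 0.74, and 0.62 within shared sub-clusters), and SEMA3E, a semaphorin that acts through PLXND1, was at 15.1 CPM in PD and 32.6 CPM in CT (ratio 0.462, interval 0.334 to 0.633). SEMA4B had a ratio of 0.455 (0.222 to 0.876) and EFNA1 one of 0.488 (0.365 to 0.647); within shared sub-clusters these were 0.726 for SEMA4B and 0.561 for EFNA1. All 5 direct SPN markers had UMIs in these nuclei and summed to 68.3 CPM in PD and 149.7 CPM in CT. The indirect SPN markers summed to 92.4 CPM in PD and 194 CPM in CT, while the list of markers common to SPNs ran the other way, with 1101 CPM in PD and 948 CPM in CT. The part of these lists in the lower values was not tested. In CN, 2 of 38 were higher and none lower (background 1.49% and 2.82%), NTNG2 and PLXNA3. A receptor for secreted semaphorins, PLXNA3 was at 13 CPM in PD and 5.27 CPM in CT (ratio 2.48, interval 1.21 to 5.71, and 2.29 within shared sub-clusters).

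Microglia-like nuclei, a class that here also takes in macrophage-like nuclei, held the highest share of guidance genes past 2-fold in CN, from few genes that could be compared. In CN 5 of 15 were higher and 1 lower (background 3.97% and 1.72%), in SN 2 of 12 and none (background 5.69% and 4.48%), and in PUT 1 of 11 and none (background 2.3% and 2.04%). PLXNC1, the plexin that binds SEMA7A, stood at 295 CPM in PD and 69.3 CPM in CT in SN, a ratio of 4.27 (3.06 to 6.05), and at 171 CPM in PD and 47.8 CPM in CT in CN, a ratio of 3.59 (1.72 to 8.64). PUT had 87.9 CPM in PD and 47.6 CPM in CT, on 30 UMIs in PD and 15 in CT, too few for the comparison. PD was above CT in SN and CN, and the PUT values, which were not compared, lay in the same direction. Of 7 guidance genes tested in this class in all 3 regions, none was past 2-fold in all (background 0.463% higher and 0.193% lower). In SN the sub-clusters were unequal: one led by F13A1, MYOF, CLEC7A and CD74 held 381 PD and 10 CT nuclei and had PLXNC1 at 348 CPM in PD, and another held 119 PD and 582 CT nuclei with 186 CPM in PD and 65.5 CPM in CT. Within shared sub-clusters the SN ratio was 2.62. The other SN ratios of this class given below also compare libraries with these unequal sub-clusters.

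SEMA6A, a membrane-spanning semaphorin, was the 1 lower gene in CN, at 127 CPM in PD and 287 CPM in CT (ratio 0.442, interval 0.292 to 0.669), and was at 63.8 CPM in PD and 102 CPM in CT in SN (ratio 0.623, interval 0.402 to 0.951), which did not pass 2-fold. EPHB1, an Eph receptor that binds B-class ephrins, was at 73 CPM in PD and 19.6 CPM in CT in SN (ratio 3.73, interval 1.95 to 7.59) and at 139 CPM in PD and 53.7 CPM in CT in CN (ratio 2.59, interval 1.27 to 5.95). The CN calls rest on few CT UMIs, 8 for PLXNC1, 9 for EPHB1 and 7 for SLIT3. In CN, SLIT3 had 114 CPM in PD and 41.8 CPM in CT (ratio 2.73, interval 1.23 to 7.17). SEMA3A had 117 CPM in PD and 53.7 CPM in CT and EPHA6 189 CPM in PD and 89.6 CPM in CT. SLIT3, SEMA3A and EPHA6 are abundant in spiny neurons, and the list of SPN markers in CN microglia-like nuclei summed to 849 CPM in PD and 519.5 CPM in CT. The more specific lists ran the other way there, the direct SPN markers at 109 CPM in PD and 191 CPM in CT and the indirect SPN markers at 147 CPM in PD and 203 CPM in CT. The part of this neuronal signal in the ratios was not tested. DCC was at 548 CPM in PD and 269.9 CPM in CT in PUT (ratio 2.03, interval 1.56 to 2.65) and at 397 CPM in PD and 203 CPM in CT in CN (ratio 1.96, interval 1.34 to 2.92, not past 2-fold). In T or NK lymphocyte-like nuclei DCC stood at 857 CPM (664 to 1088), from 67 UMIs over all 112 nuclei, 64 of them from the SN PD library. The PUT and CN libraries each held 4 to 21 of these nuclei. The microglia-like levels of DCC lie below that pooled value. Oligodendrocyte markers in microglia-like nuclei summed to 2367 CPM in PD and 2398 CPM in CT in PUT. In CN they summed to 1222 CPM in PD and 1147 CPM in CT. The precursor markers summed there to 296 CPM in PD and 143 CPM in CT, and in PUT to 299 CPM in PD and 181 CPM in CT. Whether the DCC levels come from lymphocyte-like nuclei, from RNA of these other classes or from free RNA was not tested. ROBO2 was at 376 to 697 CPM in microglia-like nuclei and at 601 CPM in lymphocyte-like nuclei. EPHB1 and SLIT3 each had 0 of 45288 UMIs in the lymphocyte-like nuclei of the SN PD library. The Poisson interval reaches 81.5 CPM, above the 73 CPM of EPHB1 in SN PD microglia-like nuclei. SLIT3 was called in CN, as EPHB1 also was, and a count from SN does not bear on those calls. PLXNC1 had 177 CPM in the lymphocyte-like nuclei of the SN PD library. The median depth was 888 UMIs in SN PD microglia-like nuclei and 671.5 in those lymphocyte-like nuclei.

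**Figure D4:**
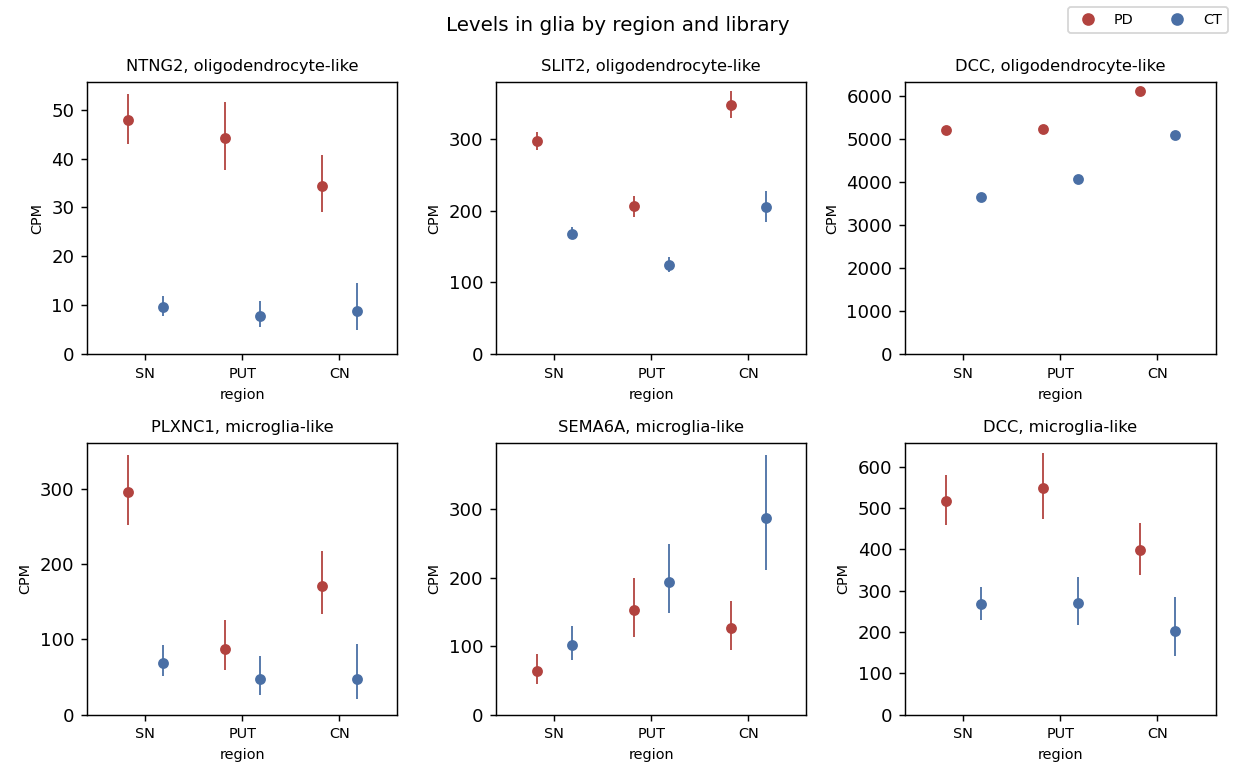
NTNG2, SLIT2 and DCC in oligodendrocyte-like nuclei (upper panels) and PLXNC1, SEMA6A and DCC in microglia-like nuclei (lower panels) by region, in CPM with 95% Poisson intervals, PD red and left of CT in blue. NTNG2 and SLIT2 are above CT in the PD library of all 3 regions. PLXNC1 is above and SEMA6A below CT in substantia nigra and caudate. Both lie the same way in putamen, where PLXNC1 had too few UMIs to be compared.

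In dopaminergic-like nuclei netrin-1 and its receptors lay within 2-fold between PD and CT. DCC had a ratio of 1.01 (0.994 to 1.03), NTN1 one of 0.811 (0.776 to 0.848), UNC5C one of 0.817 (0.784 to 0.852) and ROBO2 one of 0.87 (0.86 to 0.88). Of 44 genes tested, 5 were past 2-fold higher and 1 lower (background 2.0% and 1.83%). The ligand SLIT3 stood at 152 CPM in PD and 50.2 CPM in CT, a ratio of 3.02 (2.61 to 3.5), and SLIT2 at 53.5 CPM in PD and 86.9 CPM in CT, a ratio of 0.615 that did not pass 2-fold. NTNG1 was at 510.2 CPM in PD and 250.3 CPM in CT (ratio 2.04, interval 1.9 to 2.19), and EPHA4 at 23.2 CPM in PD and 7.93 CPM in CT (ratio 2.93, interval 2.01 to 4.32). PLXNB2, a plexin for membrane-spanning semaphorins, had a ratio of 2.44 (1.36 to 4.51) and EFNB3 one of 2.13 (1.3 to 3.54). EFNB1, a B-class ephrin, was the 1 lower gene, at 9.74 CPM in PD and 28.3 CPM in CT (ratio 0.344, interval 0.235 to 0.492).

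The make-up of this class was unequal. A sub-cluster led by CALCR held 46 PD and 10 CT nuclei, and one led by ALDH1A1 held 20 PD and 75 CT nuclei. The CALCR-led one had SLIT3 at 384 CPM and NTNG1 at 967 CPM in PD. Within sub-clusters of at least 20 nuclei in both libraries, the ratio was 1.82 for SLIT3, 1.68 for NTNG1 and 1.33 for EFNB3, and none of these was past 2-fold. EPHA4 was 3.6, PLXNB2 2.04 and EFNB1 0.465, all still past it. In the 4 sub-clusters that could be compared, EPHA4 was at 16.6, 32.3, 36.9 and 15 CPM in PD, against 5.8, 6.76, 7.29 and 9.82 CPM in CT. EFNB1 was at 6.93, 10.1, 13.8 and 18 CPM in PD, against 17.4, 33.8, 27.8 and 28.6 CPM in CT. Both genes kept their direction in each of the 4. The ALDH1A1-led one held 20 PD nuclei, and ratios with counting intervals within single sub-clusters are not given here.

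**Figure D5:**
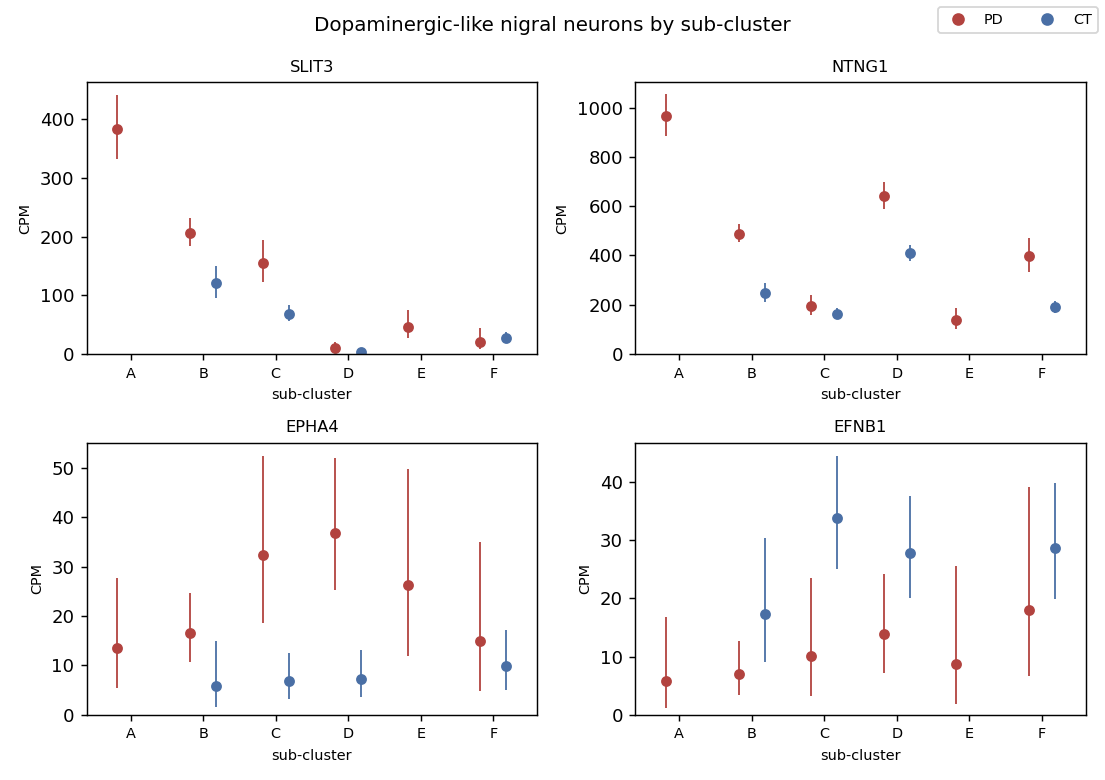
SLIT3, NTNG1, EPHA4 and EFNB1 in 6 sub-clusters (A to F) of the dopaminergic-like nuclei of substantia nigra, in CPM with 95% Poisson intervals, PD left of CT, where a library had at least 20 nuclei. SLIT3 and NTNG1 are highest in sub-cluster A, which held 46 PD and 10 CT nuclei, and EPHA4 is above and EFNB1 below CT in every sub-cluster with both.

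Striatal spiny neurons showed mostly lower calls, and few of them. PD and CT lay in almost separate sub-clusters: the largest ones held 1539 PD and 34 CT or 38 PD and 1915 CT direct SPN-like nuclei of CN, 1481 PD and 26 CT or 22 PD and 1771 CT indirect ones of CN, 1222 PD and 50 CT or 38 PD and 1402 CT direct ones of PUT, and 1086 PD and 42 CT or 60 PD and 1416 CT indirect ones of PUT. In these the values within shared sub-clusters rest on 22 to 60 nuclei of 1 library. Of 46 genes tested in PUT direct SPN-like nuclei 1 was higher and 4 lower (background 1.68% and 2.5%). SEMA4D, a semaphorin of myelinating cells, was at 29.5 CPM in PD and 14.5 CPM in CT (ratio 2.04, interval 1.62 to 2.57, and 2.38 within shared sub-clusters), and the receptor EPHA3 was at 6.06 CPM in PD and 19.7 CPM in CT (ratio 0.307, interval 0.211 to 0.437, and 0.502 within them). SEMA4B was at 12.6 CPM in PD and 25.4 CPM in CT (ratio 0.495, interval 0.379 to 0.641, and 0.513 relative to the median gene). SLIT1 had a ratio of 0.424, which was 0.70 within shared sub-clusters, and EFNA3 one of 0.461, which was 0.693 within them. In PUT indirect SPN-like nuclei none of 46 was higher and SEMA5B was the 1 lower (background 1.85% and 2.25%), at 2.32 CPM in PD and 4.72 CPM in CT (ratio 0.491, interval 0.264 to 0.875, and 0.56 within shared sub-clusters). In CN, none of 45 was higher and 2 were lower in direct SPN-like nuclei (background 1.24% and 3.96%), and none of 43 was higher and 1 lower in indirect SPN-like nuclei (background 1.28% and 3.88%). The median log2 ratio of all genes was -0.14 in direct and -0.15 in indirect SPN-like nuclei of CN, so values there are also given relative to the median gene. NTN1 was at 7.69 CPM in PD and 16.7 CPM in CT in direct and 5.87 CPM in PD and 17.3 CPM in CT in indirect SPN-like nuclei of CN. Its ratio was 0.46 (0.353 to 0.597) in direct and 0.339 (0.25 to 0.455) in indirect SPN-like nuclei; within shared sub-clusters it was 0.503 in direct and 0.569 in indirect ones, and relative to the median gene the indirect value stayed past 2-fold at 0.378. EFNB1 in direct SPN-like nuclei of CN was at 2.68 CPM in PD and 5.9 CPM in CT (ratio 0.454, interval 0.285 to 0.707, and 0.506 relative to the median gene). The direct value for NTN1 was 0.511 relative to the median gene. None of 42 genes tested in direct and none of 41 tested in indirect SPN-like nuclei of both PUT and CN was past 2-fold the same way in both (background 0.656% higher and 1.3% lower in direct, 0.71% higher and 1.25% lower in indirect).

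Eccentric SPN-like nuclei, the smallest neuronal class of the striatum with 122 in PD and 141 in CT of PUT and 210 in PD and 217 in CT of CN, held the most extreme ratio. UNC5D, a netrin receptor that also binds FLRT proteins, was at 1076 CPM in PD and 141 CPM in CT in CN, a ratio of 7.62 (6.3 to 9.3), and at 1419.9 CPM in PD and 776 CPM in CT in PUT, a ratio of 1.83 (1.63 to 2.05). The CN CT library was low and the other 3 striatal libraries high. It was the 1 of 24 guidance genes past 2-fold higher in CN, with none lower (background 1.35% and 2.69%). The nuclei of each CN library lay mainly in a sub-cluster of their own: UNC5D was at 1013 CPM in the main one of CN PD, which held 199 nuclei, and at 113 CPM in the main one of CN CT, which held 195. No sub-cluster held 20 nuclei of both CN libraries, so a ratio within shared sub-clusters could not be had. In PUT 1 of 23 genes was lower and none higher (background 1.48% and 1.45%), SEMA3A at 53.5 CPM in PD and 191 CPM in CT (ratio 0.281, interval 0.177 to 0.43); in CN it was at 65.6 CPM in PD and 122 CPM in CT, which did not pass 2-fold. None of the 23 tested in both regions was past it the same way in both (background 0.479% higher and 0.328% lower).

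Other neuron-like nuclei had 2 of 46 genes higher and none lower in SN (background 1.11% and 1.5%), NTNG2 as given and EFNB2 at 17.2 CPM in PD and 7.07 CPM in CT (ratio 2.44, interval 1.38 to 4.51). In PUT 1 of 35 was higher and 1 lower (background 0.693% and 1.54%), SEMA4D at 64.5 CPM in PD and 29 CPM in CT (ratio 2.23, interval 1.46 to 3.42) and NTN1 at 27.9 CPM in PD and 68.3 CPM in CT (ratio 0.409, interval 0.254 to 0.638, and 0.531 within shared sub-clusters). In CN 1 of 38 was higher and none lower (background 0.803% and 2.38%), SLIT3 at 170.0 CPM in PD and 71.3 CPM in CT (ratio 2.39, interval 1.91 to 3.0, and 1.99 within shared sub-clusters). None of 35 genes tested in all 3 regions of this class was past 2-fold in the same direction in all of them (background 0.0295% higher and 0.0738% lower).

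Oligodendrocyte precursor-like nuclei had 1 call in each region, each on another gene, and none of 14 genes tested in all 3 was past 2-fold in all (background 0.0% higher and 0.0439% lower). EPHB1 was at 46.2 CPM in PD and 110.4 CPM in CT in SN (ratio 0.419, interval 0.242 to 0.698), the 1 lower of 21 tested, with none higher (background 1.33% and 0.782%). SEMA3E was at 286 CPM in PD and 117 CPM in CT in PUT (ratio 2.45, interval 1.58 to 3.89), the 1 higher of 15 with none lower (background 0.778% and 1.08%), and in SN and CN it had ratios of 1.31 and 1.64. EPHA6, an Eph receptor of the A class, was at 156 CPM in PD and 65.5 CPM in CT in CN (ratio 2.37, interval 1.49 to 3.88), the 1 higher of 20 with none lower (background 0.783% and 1.33%). NTN1 and NTNG1, which mark this class, had ratios between 0.795 and 1.11 over the 3 regions. Astrocyte-like nuclei could be compared in the striatum. In PUT none of 7 tested genes was past 2-fold (background 1.95% higher and 2.3% lower), and in CN 1 of 22 was higher and 2 were lower (background 1.4% and 2.75%). The lower ones were both semaphorins that span the membrane, SEMA6A at 56.9 CPM in PD and 133 CPM in CT (ratio 0.427, interval 0.266 to 0.666) and SEMA4D at 29.5 CPM in PD and 68.2 CPM in CT (ratio 0.433, interval 0.219 to 0.806). PLXNB3 had a ratio of 0.519 (0.272 to 0.944), which did not pass 2-fold. DCC was the higher one at 470.1 CPM in PD and 189 CPM in CT (ratio 2.49, interval 1.98 to 3.14, and 1.42 within shared sub-clusters). Lymphocyte-like nuclei had 857 CPM, but 64 of those 112 pooled nuclei came from the SN PD library, so that value says little about CN. The CN astrocyte-like nuclei lay in different sub-clusters by library, one with 189 in PD and 16 in CT and another with 61 in PD and 425 in CT. Each value within shared sub-clusters therefore rests on the second alone. There SEMA6A was at 11.5 CPM in PD, from 1 UMI, and 139 CPM in CT. In CN astrocyte-like nuclei the oligodendrocyte marker list (9 of 9 genes detected) summed to 449 CPM in PD and 365 CPM in CT, the precursor list (5 of 7, with CSPG4 and GPR17 at 0) to 531 CPM in PD and 251 CPM in CT, and the SPN list to 739.9 CPM in PD and 596 CPM in CT. The direct SPN markers summed to 59.02 CPM in PD and 111 CPM in CT and the indirect ones to 75.9 CPM in PD and 107.9 CPM in CT, opposite to the common SPN list. The part of these lists in the ratios was not tested. Of the 7 genes tested in astrocyte-like nuclei of both PUT and CN, none was past 2-fold in both (background 0.517% higher and 0.69% lower).

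A list of 59 coreceptors and downstream partners of these pathways, of which 57 were in the annotation, gave few calls outside microglia-like nuclei. In dopaminergic-like nuclei none of 48 tested partners was past 2-fold in either direction (background 2.0% higher and 1.83% lower), and in oligodendrocyte-like nuclei of SN none of 48 was higher and DPYSL3, a collapsin response mediator, was the 1 lower (background 2.66% and 3.33%). In microglia-like nuclei 5 of 28 partners were higher and 1 lower in SN (background 5.69% and 4.48%), 2 of 22 were higher and none lower in PUT (background 2.3% and 2.04%), and 3 of 20 were higher and none lower in CN (background 3.97% and 1.72%). NRP1, the neuropilin that binds class 3 semaphorins, was higher in all 3 regions, as were 0.463% of all genes, in SN with the unequal sub-clusters given above. It stood at 169.6 CPM in PD and 15.1 CPM in CT in SN (ratio 11.3, interval 5.86 to 24.3), at 167 CPM in PD and 54 CPM in CT in PUT (ratio 3.09, interval 1.77 to 5.67) and at 328 CPM in PD and 137 CPM in CT in CN (ratio 2.39, interval 1.52 to 3.9). SRGAP1, a GTPase-activating protein that acts downstream of ROBO, was at 80.3 CPM in PD and 12 CPM in CT in SN (ratio 6.66, interval 3.1 to 16.4), and the exchange factor TIAM1 at 76.6 CPM in PD and 283 CPM in CT (ratio 0.271, interval 0.189 to 0.38). In PUT astrocyte-like nuclei NRP2, the other neuropilin, was at 109.9 CPM in PD and 390.3 CPM in CT (ratio 0.282, interval 0.158 to 0.474).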

How the data were processed

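The deposited matrices hold UMI counts per gene and barcode, which the authors produced in Cell Ranger 7.0.1 per the submitters' processing notes, with no normalization. Those notes name hg38, while the gene identifiers in the files are those of a Macaca fascicularis annotation; the aligner settings and that annotation's release are not given in the sources used here. The group of each matrix came from its file name, and nothing ties barcodes to the listed samples.

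Filters kept nuclei in which at least 500 genes were detected, mitochondrial UMIs made up no more than 5% and the Scrublet score did not exceed 0.25 (expected rate 0.06); 1.93% to 6.13% of a library's barcodes exceeded that limit. Free RNA was not corrected for. UMI counts were scaled to 10000 per nucleus, 2000 variable genes without the guidance genes gave 30 principal components and an unweighted graph of 15 neighbours, with values rounded so that the clusters came out alike on repeats, and Leiden clusters (resolution 1.0) were clustered again at 0.5 with no batch correction (scanpy 1.11.5, igraph 0.11.9). The unweighted graph and the rounding were chosen after seeing the data, for that repeatability. Sub-clusters were named from marker genes; 3018 nuclei of mixed and 819 of no clear identity were set aside. Median UMIs per retained nucleus were 1170 in PD and 1243.5 in CT of SN, 1964.5 in PD and 2020 in CT of PUT, and 2667 in PD and 3008.5 in CT of CN.

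UMIs were summed per class and library and classes with at least 100 nuclei in both libraries were compared. Levels have exact Poisson and ratios exact conditional binomial 95% intervals (scipy 1.17.1), both for counting error only, and calls past 2-fold used counts plus 0.5 in genes that reached 50 UMIs in the libraries compared. With 1 library per group no test or p-value was made; the ratio and its interval were tested on simulated data. The text names up to 3 genes per class, region and direction past 2-fold, up to 3 genes highest in a class, and a list of textbook pairs whatever their values. Members, markers and lists were chosen with earlier results of these data known. Alternatives were other nucleus filters, doublet limits, scalings, fold and UMI limits and clusterings. No sequences or coordinates are given, as no sequence of the build of the files was used here.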

Additional observations from a re-analysis of the deposited data

Results flagged for a closer look

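In 3 cases a gene past 2-fold in 1 region lay on the other side of 1 in another region of the same class. SEMA5B in indirect SPN-like nuclei had a PD over CT ratio of 0.491 in PUT and 1.56 in CN. SEMA3E in oligodendrocyte-like nuclei had a ratio of 0.462 in PUT and 1.36 in CN. EFNB2 in other neuron-like nuclei, which lay mostly in different sub-clusters in SN and PUT, had a ratio of 2.44 in SN and 0.511 in PUT. Each region has 1 library per group, so none of these differences between regions was tested.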

How the results depend on the processing

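No paired analysis was possible because the matrices hold no map from barcodes to the replicates that the labels number, and for the same reason no replicate could be left out in turn. None of the 48 calls past 2-fold changed direction under any alternative that gave it a value. Counts, levels and ratios that were not called were compared by size only. The counts of genes past 2-fold followed the limits used. At 1.5-fold the higher count was 23 in SN, 17 in PUT and 29 in CN, and the lower count 16 in SN, 28 in PUT and 26 in CN. With at least 200 UMIs over both libraries the higher count was 5 in SN, 2 in PUT and 3 in CN, and the lower count 0 in SN, 4 in PUT and 2 in CN. With at least 20 UMIs, SN had 17 higher, PUT 12 higher and 20 lower, and CN 14 lower. With nuclei of at least 1000 genes, which left 14 of 21 comparisons, SN had 1 lower, PUT 3 higher and CN 3 higher, and precursor-like over oligodendrocyte-like nuclei had 6 genes higher in all 6 libraries. Within shared sub-clusters, which left 20 comparisons, SN had 2 lower and PUT 5 lower. With the mean of per-nucleus CPM, PUT had 7 lower. For direct over indirect SPN-like nuclei, 1 gene was lower in all 4 libraries with a Scrublet score of at most 0.15 and also 1 with the mean of per-nucleus CPM. Of the 48 calls, those still past 2-fold were 44 with the stricter score, 42 after centring on the median gene, 37 with the mean of per-nucleus CPM, 45 with guidance genes among the variable genes, and 44 with no doublet removal, an alternative chosen after seeing the data; 32 of 35 with a value were so with at least 1000 genes. Before the rounding and the unweighted graph were chosen, the bounds of sub-clusters and some calls moved between clustering runs: NTNG1 and PLXNB3 in CN astrocyte-like nuclei, SEMA6A in SN and DCC in CN microglia-like nuclei and EFNA3 in CN indirect SPN-like nuclei had been past 2-fold and are not here, and SEMA4B in PUT direct and SEMA5B in PUT indirect SPN-like nuclei had not been and are here. Depth limited what could be compared in astrocyte-like, microglia-like and precursor-like nuclei, where 7 to 22 of the 66 genes reached 50 UMIs.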

Other observations

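Vascular and ventricular classes were too small to be compared between PD and CT, and their UMIs were pooled over the 6 libraries, with 95% Poisson intervals for counting error only. These values are descriptions of few nuclei. In 59 endothelial-like nuclei, SEMA6A and EPHA4 each stood at 546 CPM (366 to 784). In 51 nuclei like pericytes or smooth muscle, SLIT2 and NTNG1 each stood at 337 CPM (213 to 505) and SLIT3 at 322 CPM (202 to 488). In 45 fibroblast-like nuclei, ROBO1 stood at 1121 CPM (839 to 1466), EPHA3 at 381 CPM (226 to 601.5) and SEMA3C at 317 CPM (178 to 523). In 23 ependymal-like nuclei, which line the ventricles, SLIT2 stood at 798 CPM (516 to 1178). DCC was at 489.6 CPM (319.8 to 717) in endothelial-like nuclei, below its level in lymphocyte-like nuclei.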
